A study of Mus musculus with 34 samples.

Results

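The 8 genes described here encode the factors that bind RUNX and C/EBP motifs, namely Runx1, Runx2, Runx3 and their partner Cbfb, and Cebpa, Cebpb, Cebpd and Cebpg. They were chosen from 21757 protein-coding genes because their motifs differed between hair follicle stem cell (HFSC) cultures given dead cells. The values that chose them were therefore motif counts in the culture comparisons, and the accessibility of the genes' own chromatin in those comparisons is given below as a description with no test. Each gene's window comprised its body, the 50 kb before it and the 5 kb after it. The windows held 243 of the 298357 sites at which any of the 34 libraries had a peak, and 1971 of 1930325 peaks. Of these sites 135 lay in introns, 79 upstream, 16 in exons and 13 downstream of the genes. Because the Cebpa and Cebpg windows overlap, 11 sites were shared by both genes.

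The measurement was ATAC-seq, in which a transposase inserts adapters into open chromatin, on mouse HFSCs purified by FACS, and the 34 libraries formed 11 groups. From skin came wild type HFSCs at the end of the growth phase (AnaVI, n = 2) and in late regression (CatVII, n = 6), and CatVII HFSCs that were Rxra WT (n = 4) or Rxra cKO (n = 3). In the cKO, a tamoxifen-inducible Sox9-creER deleted loxP-flanked Rxra, the gene of a retinoid receptor, and a YFP reporter in the Rosa26 locus marked recombined cells. The paper states that Rxra WT HFSCs sorted for ATAC-seq also carried Sox9-creER and the reporter, and that all mice of this line received tamoxifen. The cultures were primary HFSC lines with intact or loxP-flanked Rxra, both carrying Sox9-creER and the YFP reporter, grown on feeder fibroblasts and treated with 4-hydroxytamoxifen, so that the controls had received the drug too. Rxra WT cultures received medium (n = 2), corpses (cisplatin-killed HFSCs, n = 4), corpses treated with BEL (bromoenol lactone, which blocks calcium-independent phospholipase A2; n = 4), or a recombinant mix of the lipids AA and LPC with RA (arachidonic acid, lysophosphatidylcholine, retinoic acid; n = 2). For Rxra cKO there were 2 cultures in medium, 3 with corpses and 2 with the recombinant mix. The sample titles number the mice of the CatVII Rxra WT and Rxra cKO groups separately, but the stored names of Rxra cKO replicates 2 and 3 give both as mouse 2, one tagged NonPhago and the other Phago, so that these 3 libraries may come from 2 mice. For the other groups the labels do not tie replicates to separate mice or cultures. The tags Phago and NonPhago, which the labels do not carry, both occur in CatVII wild type, Rxra cKO skin, the corpse cultures and the BEL cultures. CatVII Rxra WT, both medium groups and recombinant Rxra cKO are NonPhago throughout, and recombinant Rxra WT is Phago. The p-values therefore cover the spread of these libraries, part of which may be technical. Deletion depended on Sox9 promoter activity, and the labels do not give the number of culture lines behind each genotype.

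RUNX proteins bind DNA through the runt domain and gain affinity by pairing with CBFβ, the protein of Cbfb, which does not contact DNA itself. Each RUNX gene has a distal promoter (P1) and a proximal promoter (P2), and RUNX1 is known for its part in the activation of HFSCs. C/EBP proteins are basic leucine zipper factors that bind as dimers. C/EBPα and C/EBPβ are known for their roles in epidermal differentiation, C/EBPδ rises in stress responses, and C/EBPγ lacks an activation domain and acts through its partners.

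Sites whose ranks or calls differed between skin and culture, and to which the results below return, are shown first, as 200 bases of GRCm39 around the centre, on the plus strand. Capitals mark matches to RUNX (TGTGGT), C/EBP (TTGCNNAA) or AP-1 (TGANTCA) letters on either strand. A site's distance is counted from the nearest annotated start of its gene, or for Runx1 and Runx2 from the most proximal one, and is negative upstream. A pair of sites lay in the same Cbfb intron, at +11.7 kb (chr8:105908860-105909059) and +16 kb (chr8:105913218-105913417), the first with no match and the second with 1 AP-1 match. The others were Runx2 +235.1 kb, intronic (chr17:44811335-44811534, no match), Runx1 +75.1 kb, intronic (chr16:92417765-92417964, 2 AP-1 matches), Runx3 −40.7 kb, upstream (chr4:134807173-134807372, 1 AP-1 match), and Cebpb −39.5 kb, upstream and within the body of Peds1 (chr2:167491238-167491437, 1 AP-1 and 1 RUNX match).
Cbfb +11.7 kb: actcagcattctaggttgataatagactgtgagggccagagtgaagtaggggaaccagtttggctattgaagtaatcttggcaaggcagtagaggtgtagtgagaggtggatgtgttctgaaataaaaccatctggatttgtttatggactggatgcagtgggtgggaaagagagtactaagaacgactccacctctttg
Cbfb +16 kb: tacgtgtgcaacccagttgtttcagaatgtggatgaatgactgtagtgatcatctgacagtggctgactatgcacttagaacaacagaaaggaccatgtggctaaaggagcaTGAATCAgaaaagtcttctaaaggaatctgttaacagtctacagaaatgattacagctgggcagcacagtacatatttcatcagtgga
Runx2 +235.1 kb: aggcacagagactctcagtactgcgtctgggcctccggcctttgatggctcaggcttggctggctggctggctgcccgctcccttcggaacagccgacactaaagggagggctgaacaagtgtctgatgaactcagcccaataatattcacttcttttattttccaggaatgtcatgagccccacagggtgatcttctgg
Runx1 +75.1 kb: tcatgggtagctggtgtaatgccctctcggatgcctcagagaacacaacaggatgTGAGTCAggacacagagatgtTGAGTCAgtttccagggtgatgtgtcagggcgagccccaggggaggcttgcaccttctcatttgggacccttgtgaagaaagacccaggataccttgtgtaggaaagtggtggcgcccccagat
Runx3 −40.7 kb: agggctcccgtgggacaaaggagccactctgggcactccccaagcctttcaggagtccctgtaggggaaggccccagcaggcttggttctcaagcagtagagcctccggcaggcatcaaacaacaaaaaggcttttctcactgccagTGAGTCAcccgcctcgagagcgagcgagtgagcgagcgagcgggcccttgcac
Cebpb −39.5 kb: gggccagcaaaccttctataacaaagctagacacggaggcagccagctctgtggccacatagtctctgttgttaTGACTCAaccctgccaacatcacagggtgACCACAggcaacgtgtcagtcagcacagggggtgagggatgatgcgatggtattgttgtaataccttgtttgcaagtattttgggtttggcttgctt

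Over the 243 sites, RUNX letters were found in 56 (23% against 18.4% of all sites), C/EBP letters in 18 (7.41% against 9.85%) and AP-1 letters in 76 (31.3% against 23.9%). A match describes letters in these 200 bases and not binding. In 4 of the 243 sites most 25-base words occurred more than once in the genome.

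The number of peaks called set what could be compared. The 4 medium libraries had 4111 to 5709 peaks, and the other 30 had 8223 to 129597. Lists of equal length were therefore compared, taking from each library the peaks with the highest −log10 p, and a site's level is given as its rank, where 1 is the peak with the highest −log10 p in that library and a lower rank means a stronger peak. A list of 41317 peaks could be filled by 23 libraries, 9 from skin and 14 from culture, and is called the deep list. Of 10 promoters of HFSC and basal cell genes, 8 to 10 were in the deep list in skin, 7 to 8 in the recombinant cultures, 5 to 6 with corpses and 7 to 9 with BEL-treated corpses. The Cd34 promoter was in the deep list of no culture library and not in that of the AnaVI library that filled it. The paper states that wild type HFSCs from skin were sorted on CD34, and those of the Rxra line on YFP in its place. Of 8 leukocyte promoters, Csf1r was listed in every culture library that could fill the list and in none from skin, and Ptprc and Spi1 in no library. Of 8 fibroblast promoters 0 to 3 were listed, with Col3a1, Dcn and Lum in no library. Of 6 melanocyte promoters 1 or 2 were listed, with Tyr, Pmel, Kit and Sox10 in none, and of 5 endothelial promoters 0 to 2, with Cdh5, Tie1 and Kdr in none. The part of other cell types in the results below was not tested.

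**Figure D1:**
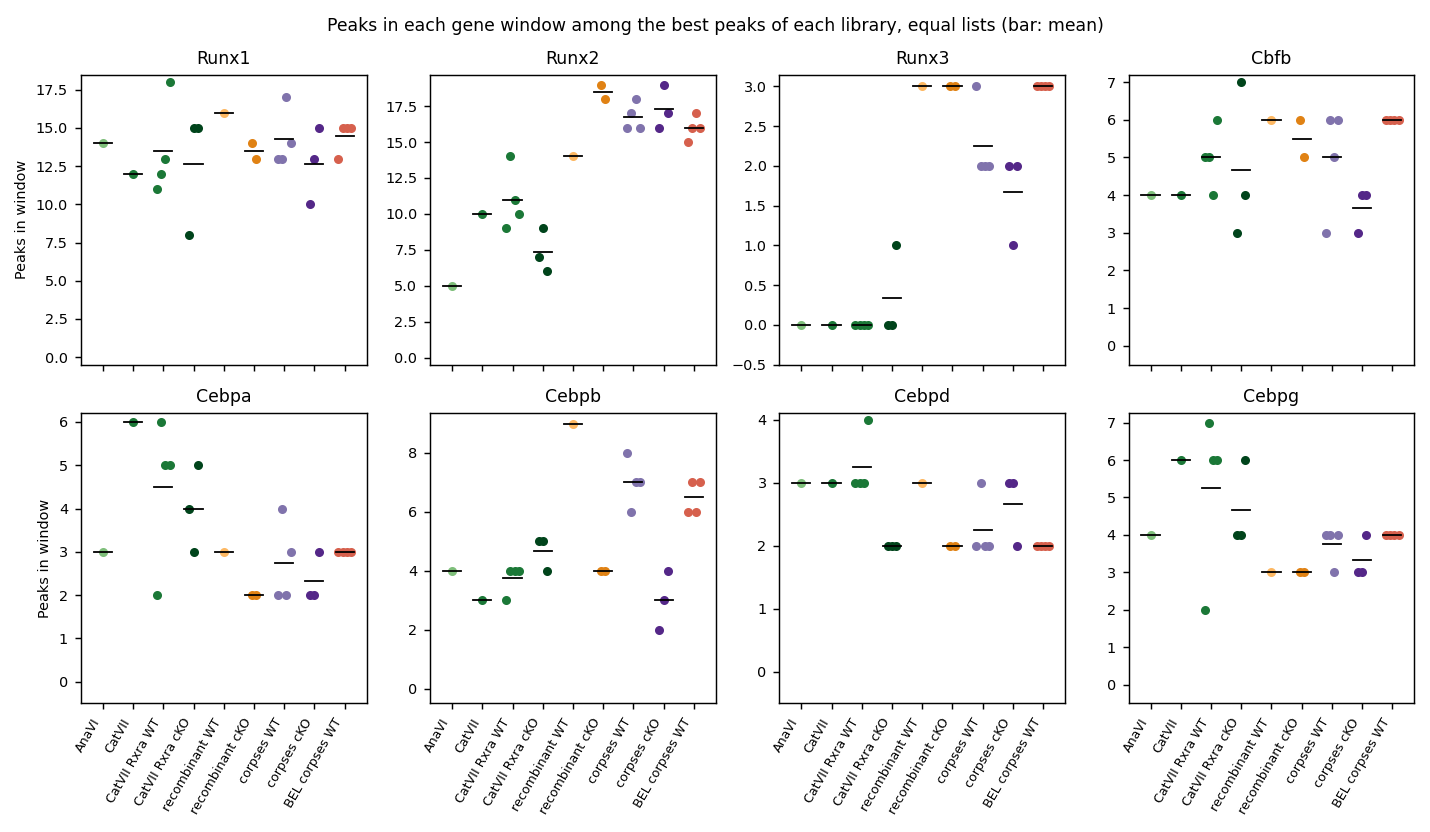
Peaks in the window of each of the 8 genes among the 41317 strongest peaks of each library; each point is 1 library of the 23 that could fill the list, grouped on the horizontal axis, with the number of peaks on the vertical axis. Runx3 had 0 or 1 peak in every skin library and 1 to 3 in every culture library, and Runx2 had 5 to 14 in skin and 14 to 19 in culture.

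Runx1, at chr16:92398354-92623037 on the minus strand, had 83 sites, 43 of them in at least 5 libraries. Its starts span 130024 bp, and the accessible one was the proximal. The P2 site, −1.3 kb from the most proximal start and −0.1 kb from the nearest one, had a peak in 29 libraries. It ranked 2002 and 1754 in AnaVI, 2386 to 10249 in the 6 CatVII wild type libraries (median 4746), 1535, 5421, 2994 and 2622 in CatVII Rxra WT, and 2874, 1735 and 1874 in CatVII Rxra cKO. In culture it ranked 7301, 4775, 3444 and 5173 with corpses, 1394, 7350 and 4028 in Rxra cKO with corpses, and 9058, 9420, 5554 and 5685 with BEL-treated corpses. Its ranks overlapped between skin and culture. P1, by contrast, had a covering peak in 8 libraries, all from culture. At P1, whose site lies in an exon, the ranks were 53297, 38259 and 24969 in Rxra cKO with corpses and 27093 and 25666 in Rxra cKO with recombinant lipids. In Rxra WT the P1 ranks were 35181 in 1 of 2 recombinant libraries, 79784 in 1 of 4 corpse libraries and 60077 in 1 of 4 BEL libraries. P1 was thus a weak site, called in all 5 Rxra cKO libraries given corpses or lipids and in 3 of the 10 such Rxra WT libraries, a count in which the recombinant groups differ in tag as well as genotype.

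The most widely shared Runx1 sites outside the promoters were intronic, at +42.1 kb in 24 libraries, and, tied, at +65.0 kb, +72.0 kb and +80.8 kb in 23 each. The +42.1 kb site, with 1 RUNX and 1 AP-1 match, ranked 6047 and 3198 in AnaVI, 8925, 17878, 11847 and 13366 in CatVII Rxra WT and 3305, 6318, 5058 and 2875 with corpses. At +75.1 kb, a site printed above that was, like Runx2 +235.1 kb, chosen after its values were seen, corpse cultures ranked 860, 4463, 9281 and 4388, BEL cultures 2784, 4691, 2749 and 4092, and recombinant Rxra WT cultures 7278 and 3753. In skin the +75.1 kb peak was absent from AnaVI, present in 1 of 6 CatVII wild type libraries (24134), in 2 of 4 Rxra WT (23869 and 30357) and in 2 of 3 Rxra cKO (8701 and 29891). The culture peaks were thus mostly stronger, and 1 Rxra cKO skin library overlapped them. The reverse order was seen at +21.9 kb, which was in the deep list of all 9 skin libraries that could fill it and of none of the 14 culture libraries.

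Runx2, the osteoblast regulator of the family, lies at chr17:44806874-45125684 on the minus strand and had 65 sites, 45 of them in at least 5 libraries. Its proximal promoter site at −0.8 kb was weak and had a peak in 23 libraries. The best promoter peak of Runx2 ranked 10528, 17207, 11186 and 11852 with BEL-treated corpses, 36559, 48649, 32190 and 37720 with untreated corpses, and 69011, 58679 and 44409 in Rxra cKO with corpses. In CatVII wild type it was called in 3 of 6 libraries (10789, 15683 and 16721). The distal promoter site at −79.4 kb had a peak in 5 libraries, none within the deep list.

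The strongest peaks of the Runx2 window lay elsewhere. The −41.5 kb site, in 30 libraries, is also the promoter of Supt3, whose gene overlaps that of Runx2. Within the Runx2 introns, the +187.5 kb site was in 29 libraries and the +147.4 kb site in 27. The +235.1 kb site was the Runx2 site that ranked highest in culture, at 2307, 364, 590 and 1309 with corpses, 1585, 1965 and 1498 in Rxra cKO with corpses, and 226, 422, 349 and 229 with BEL-treated corpses. It ranked 1114 and 561 in recombinant Rxra WT and 539 and 665 in recombinant Rxra cKO. It was also among the few member sites called in medium, at 966 in 1 of 2 Rxra WT and 727 in 1 of 2 Rxra cKO libraries. In skin it was called in 5 of 15 libraries, at 18629 to 72872. All culture libraries with this peak ranked it above every skin library. Conversely, the +187.5 kb site ranked 558 to 10788 in CatVII wild type and 1696, 2438, 4240 and 2117 in CatVII Rxra WT, against 14018, 5762, 4870 and 6489 with corpses. This order did not hold for all groups, since the +187.5 kb site ranked 3756, 27692 and 33827 in CatVII Rxra cKO, 7681, 3296, 3455 and 2804 with BEL-treated corpses and 10508 and 1312 in recombinant Rxra WT.

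Runx3, at chr4:134847952-134905301 on the plus strand, had few peaks. Of its 18 sites 6 were in at least 5 libraries, no Runx3 peak was among the 8223 strongest of any library, and a promoter peak was called in 2 of 34 libraries, at 72025 in CatVII Rxra WT replicate 2 and 73131 in BEL replicate 3. Its most shared sites lay upstream at −40.7 kb, −39.7 kb and −24.7 kb, in 16, 15 and 14 libraries. The −40.7 kb site ranked 21611, 26058, 15332 and 15625 with corpses, 18656, 17692 and 12793 in Rxra cKO with corpses, and 28984, 43720, 28533 and 20729 with BEL-treated corpses, and was called in 2 of 15 skin libraries, at 60475 and 90370. At the Runx3 gene, then, peaks upstream of the promoter were in most libraries called without a promoter peak.

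**Figure D2:**
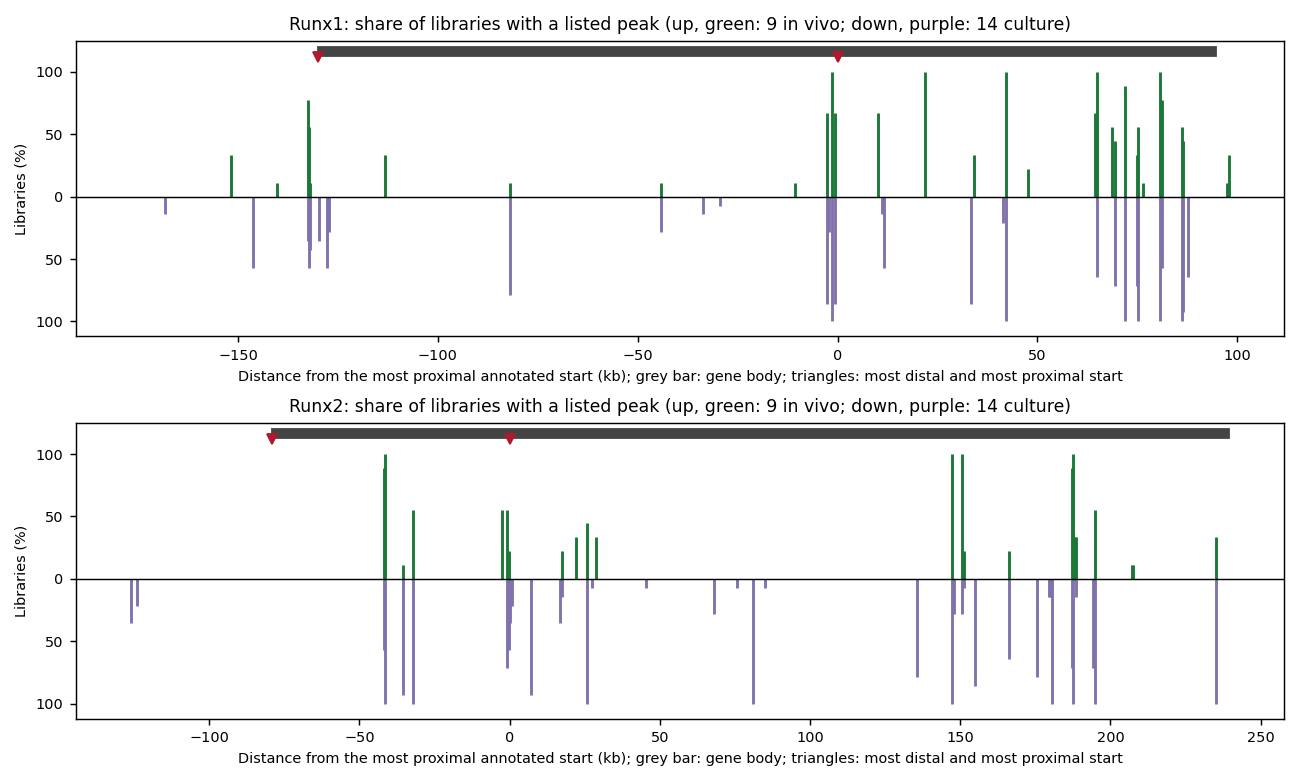
Share of the 9 skin and of the 14 culture libraries that had each Runx1 or Runx2 site in the deep list (vertical axis, percent) by distance from the most proximal start (horizontal axis, kb). Of 65 Runx2 sites, 20 were listed in culture alone and 6 in skin alone, and of 83 Runx1 sites 13 were listed in each alone, beside 12.6% and 19.2% of all sites listed in culture alone and in skin alone.

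Cbfb, at chr8:105897291-105944633 on the plus strand, had 20 sites, 12 of them in at least 5 libraries. Its promoter site at +0.1 kb had a peak in 27 libraries and ranked 10512, 4750, 5543 and 9896 in CatVII Rxra WT, 17225, 25988, 11274 and 26606 with corpses and 4351, 6283, 2825 and 2837 with BEL-treated corpses. The 2 intronic sites printed above moved in opposite directions between CatVII Rxra WT skin and the corpse cultures. The +11.7 kb site ranked 5896 and 1492 in AnaVI, 1838 to 12140 in 5 of 6 CatVII wild type libraries, 2701, 2915, 5990 and 1820 in CatVII Rxra WT and 1555, 8903 and 2161 in CatVII Rxra cKO. In culture the +11.7 kb site was called in 1 of 4 corpse libraries (94223) and 3 of 4 BEL libraries (64116, 76225 and 72785) and in no other. The +16 kb site ranked 632, 630, 654 and 267 with corpses, 343, 569 and 688 in Rxra cKO with corpses, 2137, 3141, 2476 and 2610 with BEL-treated corpses, and 2316, 1836, 3411 and 2021 in the 4 libraries given recombinant lipids. In skin the +16 kb site ranked 10049, 16353, 14867 and 5861 in CatVII Rxra WT and 15936, 1242 and 11027 in CatVII Rxra cKO, was called in 2 of 6 CatVII wild type libraries (14931 and 17814), and ranked 532 and 4508 in AnaVI. At +16 kb 1 of 2 AnaVI libraries thus lay within the range of the corpse cultures, and at +11.7 kb both lay with the other skin libraries. The CatVII Rxra cKO library at 1242 ranked the +16 kb site above every BEL and recombinant culture.

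**Figure D3:**
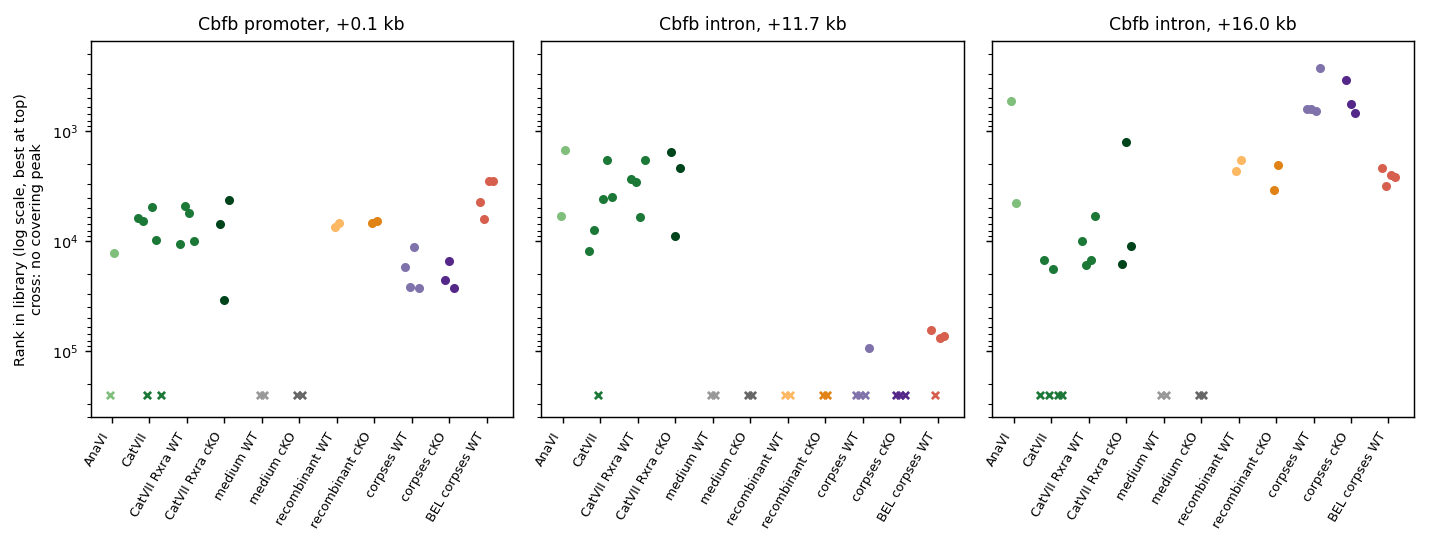
Rank of the peak covering 3 Cbfb sites in each library (vertical axis, log scale, strongest at the top; a cross marks no covering peak) by group. At +11.7 kb 14 of 15 skin libraries lay at 1492 to 12140, and the 4 culture libraries with a peak at 64116 to 94223, and the corpse cultures lay at 267 to 688 at +16 kb.

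Cebpa, at chr7:34818718-34821353 on the plus strand, had the most regularly called C/EBP promoter together with Cebpd and Cebpg, each in 31 libraries. The best Cebpa promoter peak ranked 5336 and 11278 in AnaVI and 620 to 3962 in CatVII wild type (median 2061). It ranked 7698, 2398, 5804 and 9025 with corpses and 23236, 20990 and 19488 in Rxra cKO with corpses. A site −42.5 kb from Cebpa and −20.2 kb from Cebpg, shared by both windows and with 1 AP-1 match, had a peak in 29 libraries, at 1019 to 12567 in CatVII wild type and 3144 to 9883 with corpses. A neighbour at −32.9 kb from Cebpa was in the deep list of 8 of 9 skin libraries and of no culture library.

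Cebpb, at chr2:167530835-167532338 on the plus strand, had 24 sites, of which several lie in the body of Peds1. Its promoter peak was called in 25 libraries and ranked 6796, 15071, 13490 and 15762 in CatVII Rxra WT, 20239, 24745, 9591 and 25533 with corpses and 5107, 4252, 5506 and 4132 with BEL-treated corpses. The −39.5 kb site, with 1 AP-1 and 1 RUNX match, ranked 5304, 5060, 9308 and 3522 with corpses, 28830, 22321, 19146 and 14330 with BEL-treated corpses, and 19055, 55221 and 29247 in Rxra cKO with corpses. It ranked 15118 in 1 of 2 recombinant Rxra WT libraries and 34190 and 44697 in recombinant Rxra cKO, and was called in 1 of 15 skin libraries (98954). The 4 Rxra WT corpse cultures thus ranked the −39.5 kb site above every other library. The most shared distal site, at −27.3 kb in 25 libraries, is a promoter of Peds1.

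Cebpd, at chr16:15705150-15708895 on the plus strand, had 11 sites, of which 8 were in the deep list in both skin and culture, 3 in neither and 0 in one setting alone. Its promoter ranked 1343 to 10102 in CatVII wild type (median 3145), 38902, 13381, 19464 and 23464 with corpses and 10735, 11436, 6104 and 6983 with BEL-treated corpses. Cebpg, at chr7:34745847-34756011 on the minus strand, had a promoter ranked 1013 and 534 in AnaVI, 1218 to 8708 in CatVII wild type, 1765, 7298, 6528 and 3094 with corpses, 2395, 3806 and 4023 in Rxra cKO with corpses and 2961, 3809, 1061 and 4152 with BEL-treated corpses. Skin and corpse cultures of Rxra WT overlapped at the Cebpg promoter, and both AnaVI libraries ranked it above every corpse culture.

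**Figure D4:**
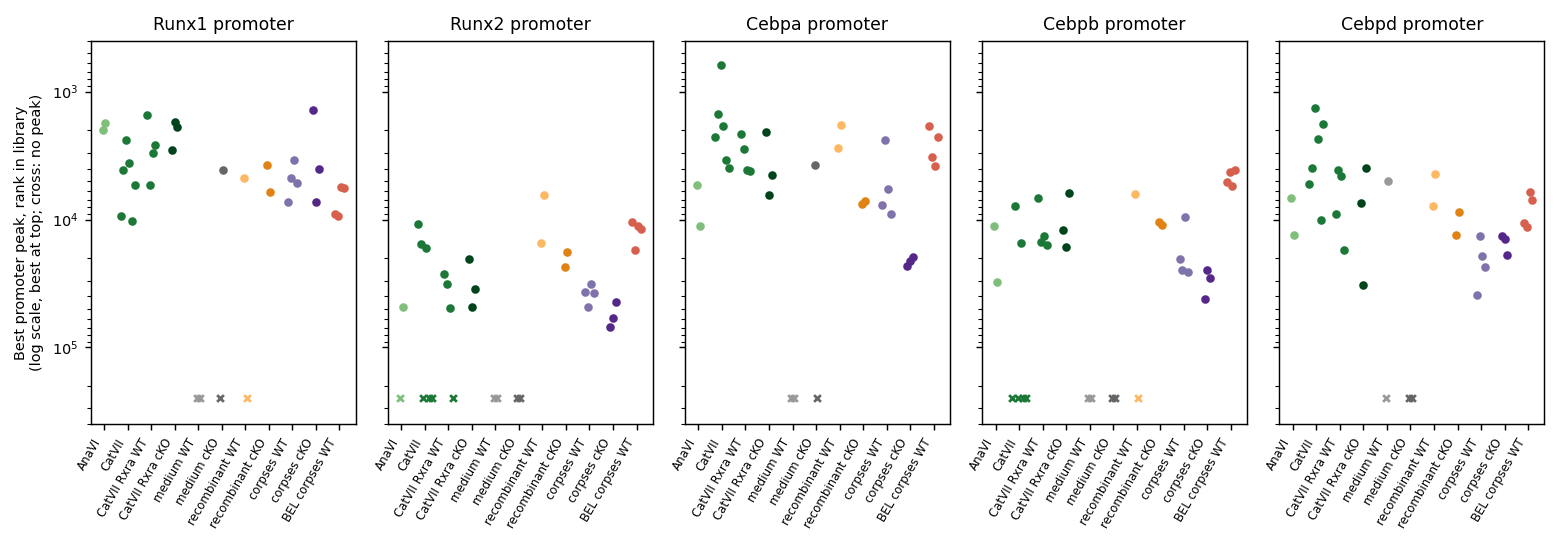
Rank of the best peak within 1 kb of a start of Runx1, Runx2, Cebpa, Cebpb and Cebpd in each library (vertical axis, log scale, strongest at the top; a cross marks no peak) by group. The Cebpa promoter ranked 19488 to 23236 in Rxra cKO with corpses and 2398 to 9025 in Rxra WT with corpses.

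The first comparison asked how the loci differed between late regression and the end of growth, CatVII against AnaVI in wild type skin. In lists of 8223 peaks, the Runx1 window held 0, 1, 1, 1, 0 and 1 peaks in CatVII and 4 and 3 in AnaVI (0.667 ± 0.516 SD, n = 6, and 3.5 ± 0.707, n = 2). The groups did not overlap (exact permutation p = 0.0357, adjusted p = 0.399 over 15078 genes), which 5.28% of all genes also showed in this direction and 4.90% in the other. Of 19 member sites tested, 1 was listed in every CatVII library and in no AnaVI library, the Supt3 promoter in the Runx2 window, ranked 1759, 868, 2008, 1716, 886 and 1088, against 4.79% of all sites. Another 2 were listed in AnaVI alone, Cbfb +16 kb and Runx1 +42.1 kb, against 5.97%. Past the list end, the Supt3 site was also called in AnaVI replicate 2, at 11965. In CatVII, Cbfb +16 kb was called past it at 14931 and 17814, and Runx1 +42.1 kb at 18380. The 3 sites each had an exact permutation p = 0.0357 on log10 rank, and the smallest adjusted p over all sites was 0.257. AnaVI peaks were narrower (median 97 and 194 bp against 253 to 413 bp in CatVII), and with summits in place of peak extents the Supt3 site was no longer particular to CatVII while the other 2 remained particular to AnaVI. No gene passed an adjusted p of 0.05 (1348 had an unadjusted exact p under 0.05), and 28 arrangements of 8 libraries allow no exact p below 0.0357.

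The next comparison addressed the loss of Rxra in CatVII skin. In lists of 41317 peaks, the Runx2 window held 7, 9 and 6 peaks in Rxra cKO and 9, 14, 11 and 10 in Rxra WT (7.33 ± 1.53 SD, n = 3, against 11 ± 2.16, n = 4). These Runx2 values overlapped at 9 (exact permutation p = 0.0857, adjusted p = 0.759). The Cebpd window held 2, 2 and 2 against 3, 3, 3 and 4 and did not overlap in these lists (exact permutation p = 0.0286, adjusted p = 0.759 over 18590 genes), as did 3.68% of all genes in this direction and 1.10% in the other. With all called peaks the Cebpd window held 2, 2 and 5 against 3, 4, 3 and 4 and overlapped, and the difference of means went from −1.25 to −0.5 peaks. Without replicate 2 or without replicate 3 of Rxra cKO, which may share a mouse, it was −1.25 (exact permutation p = 0.0667 each). The windows of the other 6 genes overlapped. Of 55 member sites tested, 1 was listed in every Rxra WT library and absent from every Rxra cKO list (1.63% of all sites) and 0 in the other direction (0.477%). That site was Runx2 +25.6 kb, ranked 25762, 38140, 24847 and 34849 in Rxra WT, and in Rxra cKO absent from 1 library and at 45182 and 93307 in the others (exact permutation p = 0.0857 on log10 rank). By rank, the member site with an unadjusted exact permutation p under 0.05 was Runx1 +81.1 kb, at 10783, 11676, 7003 and 5112 in Rxra WT and 22159, unlisted and 13975 in Rxra cKO (p = 0.0286, adjusted p = 0.608). The neighbouring Runx1 +80.8 kb had the same ranks in Rxra WT, and in Rxra cKO all 3 libraries were listed, at 22159, 11420 and 13975 (exact permutation p = 0.143). The difference at +81.1 kb thus rests on whether the peak of replicate 2 reached that centre. Runx2 +187.2 kb and +187.5 kb, which share peaks, had larger ratios of geometric mean ranks, Rxra cKO over Rxra WT, of 7.04 and 6.16 (exact permutation p = 0.0571 each). Runx1 +81.1 kb and these Runx2 sites were named after their values were seen. No gene or site passed an adjusted p of 0.05, although 679 genes and 2232 sites had an unadjusted exact p under 0.05. The 35 arrangements of these libraries allow no exact p below 0.0286. Stored names carry the tag P42 in all Rxra cKO libraries and P37 in 3 of 4 Rxra WT libraries, so tag and genotype cannot be told apart in most of these libraries. The stored names of those 3 Rxra WT libraries carry numbers that follow on from those stored for CatVII wild type, and whether they came from the same set of mice is not given in the labels.

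The third comparison set corpse cultures beside CatVII skin, both Rxra WT, a contrast that did not choose the genes but shares its corpse libraries with those that did. In lists of 43758 peaks, the windows of Runx2, Runx3 and Cebpb held more peaks in every corpse culture than in any skin library. Runx2 had 17, 17, 18 and 18 against 9, 14, 11 and 11 (17.5 ± 0.577 SD against 11.2 ± 2.06, n = 4 each). Runx3 had 3, 2, 2 and 2 against 0 in each of 4, and Cebpb 8, 7, 7 and 7 against 3, 5, 4 and 6. Counted from 10 kb upstream instead of 50 kb, the differences of the means fell from 6.25, 2.25 and 2.75 peaks to 5.75, 0 and 0.25, so the Runx3 and Cebpb differences lay mostly more than 10 kb upstream. Each of the 3 reached the smallest exact permutation p that 70 arrangements allow, 0.0286, with an adjusted p of 0.121 over 18810 genes, of which 12.2% were higher in every corpse culture and 11.4% higher in every skin library. Runx1, Cbfb, Cebpa, Cebpd and Cebpg overlapped. No gene passed an adjusted p of 0.05, and 4434 had an unadjusted exact p under 0.05.

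Site by site, 12 of 59 member sites tested were listed in all corpse cultures and no skin library of this comparison (20.3%, against 18.8% of all sites), and 4 in skin alone (6.78%, against 12.3%). Both shares were near those of all sites, and the results concern the named sites. The 12 comprised 7 of Runx2, 3 of Cebpb, 1 of Runx1 and 1 of Runx3. The best ranked were Cebpb −39.5 kb, Runx2 +81.0 kb (13220, 5478, 6681 and 7366) and Runx2 +7.0 kb (22533, 7833, 15399 and 13177). The 4 of skin were Cbfb +11.7 kb, Runx1 +21.9 kb (8655, 19369, 30498 and 12277), Runx1 +64.3 kb (18205, 17859, 20856 and 10804) and Cbfb −32.1 kb, which lies in the body of Ces4a. With summits in place of peak extents Runx1 +64.3 kb was no longer particular to skin, and in replicates 2 and 3 the peak covering it, at 17859 and 20856, was the one that also covered Runx1 +65.0 kb. AP-1 letters were found in 10 of the 12 culture sites and 0 of the 4 skin sites, where over all sites they were found in 60.8% of 9675 and 16.1% of 6327. RUNX letters were found in 3 of the 12 (29.2% over all sites) and 0 of the 4 (12%), and C/EBP letters in 0 of the 12 (10.7%) and 0 of the 4 (11.8%).

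Ranks gave a size to these differences. The ratio of geometric mean ranks, skin over corpses, was 21.3 at Cbfb +16 kb, 36 at Runx2 +235.1 kb and 9.71 at Runx1 +75.1 kb, with unlisted libraries set just past the end of the list, so that all 3 were stronger with corpses. In the other direction, the ratio of corpses over skin was 2.88 at Runx2 +187.5 kb and 2.65 at the Cbfb promoter. Cbfb +11.7 kb was listed in no corpse culture, so its ratio of 14.4 against the end of the list is a lower bound, and the ratios of Runx2 +235.1 kb and Runx1 +75.1 kb, each unlisted in 2 of 4 skin libraries, rest partly on that end too. Each of these 6 had an exact permutation p = 0.0286 and an adjusted p = 0.0578 over all sites, the smallest any site reached. Of the 59 sites, 17 were listed higher with corpses and 9 in skin at an unadjusted exact p under 0.05, as were 26.8% and 22.6% of all sites. Among promoters, the one of Cbfb ranked higher in every skin library, as did 29.4% of promoters against 3.55% with the reverse order, and the other 6 called promoters overlapped. Culture and skin also differed in the sort and in the feeder cells, and these cannot be told apart from the corpses.

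Comparisons between corpse cultures chose the genes, and the values of all culture comparisons follow without a test. Against medium, in lists of 4812 peaks, 1 of 7 member sites was listed in all 4 corpse cultures and neither medium library, Cbfb +16 kb, and 0 in medium alone, beside 19.0% and 10.7% of all sites. The windows of all 8 genes overlapped between corpses and medium, with 0 to 2 peaks each.

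In Rxra cKO against Rxra WT corpse cultures, in lists of 72047 peaks, the Cebpa, Cebpb and Cebpg windows held fewer peaks in the cKO. Cebpa had 4 in each of 3 against 6 in each of 4, Cebpb 7 in each of 3 against 11, 9, 9 and 11, and Cebpg 5, 4 and 5 against 7, 7, 6 and 6, beside 4.93% of all genes with this order and 3.67% with the reverse. Cebpa and Cebpg share sites and are not separate observations. In the deep list Cebpb kept this order, with 2, 3 and 4 against 8, 6, 7 and 7, and the Cebpa and Cebpg windows overlapped. With recombinant lipids the Cebpb window held 9 peaks in the Rxra WT library that filled the deep list and 4 and 4 in Rxra cKO, while in CatVII skin it held 5, 5 and 4 in Rxra cKO and 3, 4, 4 and 4 in Rxra WT. The recombinant Rxra WT library is tagged Phago and both Rxra cKO ones NonPhago, so tag and genotype cannot be told apart there. In the corpse cultures the deep-list counts were 2 and 3 against 8 and 6 among NonPhago libraries and 4 against 7 and 7 among Phago ones. The lower Cebpb count in Rxra cKO was not seen in skin, and whether the genotype difference itself differs between the settings was not tested. The Cebpa promoter ranked 3.8 times lower in the cKO with no overlap, beside 6.71% of promoters with this order and 5.12% with the reverse, and the other 6 promoters overlapped. Of 91 member sites, 2 were listed in all cKO libraries alone (3.27% of all sites), the Runx1 P1 site and Runx2 +188.6 kb (46099, 61837 and 56866). Another 3 were listed in all Rxra WT libraries alone (1.54%), Runx2 +150.7 kb (55521, 26460, 46900 and 45059), Cebpg −12.5 kb (36667, 44692, 63132 and 67314) and Cebpb +1.2 kb (65826, 55968, 45285 and 59508). Past the list end, Rxra cKO libraries had Runx2 +150.7 kb at 73926, Cebpg −12.5 kb at 99790 and 112878, and Cebpb +1.2 kb at 81070 and 72665. Of the cKO sites, Runx1 P1 was called past that end in 1 Rxra WT library (79784) and Runx2 +188.6 kb in none.

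With BEL-treated against untreated corpses, in lists of 63739 peaks, 7 of 100 member sites were listed in all BEL cultures alone (7.50% of all sites) and 0 with untreated corpses alone (0.488%). Of the 7, 5 lay within 1 kb of a start of Cbfb, Cebpd or Runx2. The Cebpd sites among them had the same rank in every BEL library, and the Runx2 sites in all but replicate 3. They thus share peaks and are not separate observations. BEL peaks were wider (median 434 to 457 bp against 130 to 268 bp), and with summits in place of peak extents 1 of the 7 remained, Cbfb −32.1 kb (59522, 56696, 62993 and 49350). Past the list end, Cbfb −32.1 kb was also called in 2 of 4 untreated corpse libraries, at 71325 and 65819. The promoters of Cbfb (4.98 times), Cebpb (3.97 times), Runx2 (3.08 times) and Cebpd (2.6 times) ranked higher in every BEL culture, while Runx1, Cebpa and Cebpg overlapped. This order held for 47.5% of all promoters and the reverse for 2.25%. Whether the wider BEL peaks played a part in these ranks was not tested. All 8 windows overlapped in their number of peaks. The same 4 untreated corpse libraries enter this and the 3 comparisons before it.

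Of the 243 sites, 67 were in the deep list of at least 1 library of both settings (27.6%, against 19.2% of all 298357 sites), 30 in skin alone (12.3%, against 19.2%), 47 in culture alone (19.3%, against 12.6%) and 99 in neither, with 14 culture and 9 skin libraries contributing. AP-1 letters were found in 24 of the 47 (46.7% of such sites over all) and 7 of the 30 (11.9%). Runx2 gave 20 of the culture sites (9 with AP-1 letters), Runx1 13 (5), and Runx3 3 (3).

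Among 27 partners of these factors, the promoters of the RUNX co-repressors Tle1, Tle3 and Tle4, of the kinase gene Hipk1 and of the C/EBP dimer partners Ddit3, Atf4 and Atf5 were in the deep list of all 23 libraries, and those of Tle2, Cebpe and Batf in none. None of the partners' windows passed an adjusted p of 0.05. Of 24 tested between CatVII and AnaVI, Yap1 (2, 2, 2, 2, 2 and 3 peaks against 0 and 1) and Trib2 (1, 1, 2, 1, 1 and 1 against 0 and 0) were higher in every CatVII library and Tle3 (0 in each of 6 against 1 and 2) in AnaVI. Of 27 tested between Rxra cKO and Rxra WT skin, Crebbp was higher in every cKO library (4, 4 and 3 against 2 in each of 4) and Yap1 lower (3, 2 and 3 against 7, 5, 5 and 5). Of 27 tested between corpse cultures and skin, Tle3 was higher with corpses (7 in each of 4 against 6 in each of 4) and Tle1 (1, 1, 1 and 2 against 4, 5, 5 and 5) and Batf (1 in each of 4 against 2, 2, 3 and 4) lower. These counts of 1 or 2 partners each way lie beside the shares of all genes given with each comparison above.

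Across the 30 libraries outside medium, 6183 genes had promoter peaks in at least 10 lists of 8223 peaks, and the promoter ranks most like those of each member were named by Pearson's r as a description. They were Eya3 (r = 0.77) and Gtpbp2 (0.74) for Runx1, Trpm7 and ENSMUSG00000144230 (0.81 each) for Cbfb, Cln8 (0.78) and Mtdh (0.76) for Cebpa, Rnf24 (0.92) and Il17ra (0.88) for Cebpb, Cyp2j9 (0.9) and Jmy (0.86) for Cebpd, and Cep68 and Gadd45b (0.6 each) for Cebpg. The Cebpb promoter was within the list in 8 and the Cebpd promoter in 14 of the 30 libraries, and libraries of a group may share depth. Runx2 and Runx3 were within the list in 1 and 0 libraries and were not compared.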

How the data were processed

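The files held ATAC-seq peak lists of 34 libraries. Per the paper's methods, BWA-MEM 0.7.18 was the authors' aligner (build mm39), SAMtools 1.17 took out duplicates, and MACS3 3.0.0 called peaks from fragments in each library by itself. The submitters' processing notes also name SAMtools 1.9 and deepTools 2.0.0. The deposited lists give, per peak, a fold enrichment over the local background (a ratio), a −log10 p, a −log10 q and an integer score, all made by the authors' peak caller before deposit. The paper states a range of sequencing depth for its ATAC-seq libraries. The lists hold no reads, so the depth of each library is unknown, as is its part in the number of peaks called (4111 to 129597 per library on chromosomes).

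The members, lists and tests were chosen with earlier results of these data known. Peaks were ranked by −log10 p within each library, and equally long lists were compared. Sites were built from all summits, strongest first, each keeping 250 bases on either side free of others, and a library had a site when a listed peak covered its centre. Windows ran from 50 kb before to 5 kb after the gene, and promoters lay within 1 kb of a start in GENCODE mouse release M39. Peaks per window, and log10 ranks at sites, were compared by exact two-sided permutation of the group labels with Benjamini-Hochberg adjustment over all genes or sites, for CatVII against AnaVI, CatVII Rxra cKO against Rxra WT, and corpse cultures against CatVII skin. Unlisted sites took the rank just past the list. Sites or windows without overlap between groups were counted beside the same share over all. The other comparisons were only described. Sites are named where within 1 kb of a start in at least 5 libraries, among the 3 others of a gene shared by most libraries, or particular to 1 group, with values for the 3 best ranked. Motifs were searched on both strands in 200 bases. Ranks at sites and at promoters were compared as alternatives chosen after seeing the data. Other alternatives were all called peaks, lists shortened by a factor of 2, summits in place of extents, 10 kb upstream, each library left out, libraries tagged P42 only, and a replicate block. The permutation test was tested on simulated data. Python 3.11.15, numpy 2.4.6, pandas 2.3.3 and matplotlib 3.10.9 were used. RefSeq promoter sequences of another build were not used here, and 0 columns lacked a sample.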

Additional observations from a re-analysis of the deposited data

Results flagged for a closer look

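Counts of peaks per window among the strongest 41317 peaks (8223 for CatVII wild type) were tested by Dixon's criterion. In 6 of 25 groups of 4 to 6 libraries, 1 library stood apart from others that were tied or nearly tied. Among 4 whole-number counts, 3 equal values and 1 other always meet the criterion, so no chance rate can be set beside these 6. Runx1 had 13 peaks in 1 BEL culture and 15 in each of the other 3. With corpses, 1 Rxra WT library had 3 Runx3 peaks against 2 in each of the others, 1 had 3 Cebpd peaks against 2, and 1 had 3 Cebpg peaks against 4. In CatVII Rxra WT skin, 1 library had 3 Cebpb peaks against 4, and 1 had 4 Cebpd peaks against 3. These differences of 1 or 2 peaks rest on small whole numbers with ties.

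The recombinant Rxra WT cultures entered no tested comparison. Among the strongest 4111 peaks, their 2 libraries had 6 and 7 peaks in the 8 windows, above the 2 to 4 of the medium libraries, a difference that was not tested. It was not particular to this group, since Rxra WT cultures had 5 to 6 with corpses and 7 to 8 with BEL-treated corpses. Recombinant Rxra cKO cultures had 4 to 5 and Rxra cKO cultures with corpses 3 to 6. In skin the counts were 5 to 6 in AnaVI, 3 to 7 in CatVII wild type, 2 to 8 in CatVII Rxra WT and 4 to 6 in CatVII Rxra cKO. The recombinant Rxra WT libraries are tagged Phago and the medium ones NonPhago.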

How the results depend on the processing

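No gene window passed an adjusted p of 0.05 in any of the 3 tested comparisons (count 0) under any alternative, nor with a replicate block. The block, leaving out an AnaVI library, and leaving out any library of Rxra cKO against Rxra WT skin allow no exact p under 0.05, so there the count was fixed by the design and says nothing about stability. Elsewhere an adjusted p under 0.05 would need most genes to reach the smallest possible exact p (0.0357 or 0.0286 in the main tests). The count of 0 there therefore says little about single genes or about stability. Same-numbered libraries deviated together little (correlations −0.0389 to 0.0852), only 2 of 9 correlated best with their own number, and the numbers share no stated source, so they do not pair the samples. With the replicate block the Runx1 difference between Rxra cKO and Rxra WT skin became 0.667 (−0.833 without it).

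Counts of sites particular to 1 group moved more. With all called peaks they became 0 (CatVII) and 0 (AnaVI), 0 (Rxra WT against cKO skin), 2 (skin against corpse culture), 61 (corpses against medium), 1 and 0 (Rxra cKO and Rxra WT corpse cultures) and 3 (BEL). With lists shortened by a factor of 2 they became 2 (CatVII), 0 (AnaVI), 0 (Rxra WT skin), and 4 with corpses and 2 in skin. With summits they became 0 (CatVII) and 1 (BEL), and in P42 libraries 3 were particular to Rxra cKO skin. The rank test gave 9 for skin against corpse culture. Leaving out 1 library gave ranges of 1 to 3 (CatVII; 3 without CatVII replicate 5, 2 without CatVII or AnaVI replicate 1), 2 to 4 (AnaVI; 4 without AnaVI replicate 1), 0 to 4 and 1 to 7 (Rxra cKO and Rxra WT skin; 4 without cKO replicate 1 for cKO, and for Rxra WT 7 without Rxra WT replicate 1, 4 without cKO replicate 1 and 3 without cKO replicate 2), and 12 to 15 and 4 to 11 (corpse culture and skin; 11 without CatVII Rxra WT replicate 1). They were 1 to 2 and 0 to 1 (corpses and medium; 2 without corpses replicate 1 or medium replicate 4, and 1 without medium replicate 3 or 4), 2 to 3 and 3 to 5 (Rxra cKO and Rxra WT with corpses; 5 without cKO replicate 3), and 7 to 15 and 0 to 1 (BEL and untreated; 15 without corpses replicate 3, and 1 without corpses replicate 1). The cause was not tested.

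Differences of window means, none past the adjusted threshold, changed sign as follows. For CatVII minus AnaVI, Cebpa ranged from −0.833 to 2.17 without 1 library (0.667 with all) and Cebpb was −1 with all peaks (0.667). For Rxra cKO minus Rxra WT skin, Runx1 was 0.917 with the shortened lists and −2 to 1.5 without 1 library, Runx3 −0.5 with all peaks (0.333), Cbfb 0.667 with all peaks, 0.667 with 10 kb and −1.5 to 0.5 without 1 library (−0.333), and Cebpb −0.25 with the shortened lists and −0.25 with 10 kb (0.917). For corpse culture minus skin, Runx1 was −0.5 with the shortened lists (2.25), Cebpa 0.25 and Cebpg 0.25 with 10 kb (−2 and −1.75), and Cebpd 1 with all peaks (−0.75). The higher counts of Runx2 (5.5 to 7.17), Runx3 (2 to 2.33) and Cebpb (2.25 to 3.25) with corpses kept their sign without any 1 library. With the shortened lists they were 2.75, 0.75 and 1.25, with all peaks 12, 2 and 4.25, and with 10 kb 5.75, 0 and 0.25. With 2 libraries in AnaVI and in medium, and with the depth of each library unknown, small differences are not detectable.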
